A study of Mus musculus with 16 samples.

Results

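Integrins and laminins, the receptors and ligands that hold epithelial cells to the basement membrane, were followed across 16 bulk RNA sequencing libraries of C57BL/6 mice. Members were all genes with symbols of the integrin α chains, of integrin β chains 1 to 8 and of the laminin α, β and γ chains that were present in both deposited tables. This gave 37 genes, 26 integrins (18 α and 8 β chains) and 11 laminins (5 α, 3 β and 3 γ chains), of 55357 gene rows in the table of whole skin and 56953 in that of sorted cells. Skin was measured as back skin lysates of mice aged 8 months, in 5 libraries labelled control and 5 labelled GRK2 eKO. The sorted cells were hair follicle stem cells (HFSC), bulge cells positive for CD34 and α6 integrin, in 3 control and 3 GRK2 eKO libraries, and their sample labels give an age of 18 months where the series design gives 8. GRK2 is a kinase of G-protein-coupled receptors. The labels do not spell out eKO, and the sources used here give neither the allele nor the promoter that drives a recombinase, nor whether animals were pooled. They also do not say that the libraries of a group came from separate animals, so the p-values below measure the spread between these samples.

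An integrin is a pair of 1 α and 1 β chain, and the pairing sets the ligand. In basal keratinocytes, α6 pairs mainly with β4 in hemidesmosomes, the junctions that tie keratin filaments to the basement membrane, and α3 pairs with β1. Laminins are trimers of 1 α, 1 β and 1 γ chain, and the products of Lama3 and Lamb3 are chains of the main ligand of hemidesmosomes. Bulge stem cells carry high surface α6 integrin and are sorted by it.

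In HFSC, Itga6 was 1.49 times as high in eKO as in control libraries, while the level of its partner Itgb4 did not pass the test, and Lama3 and Lamb3, chains of the hemidesmosome laminin, fell. Itgb6, the β chain of an integrin that activates TGF-β, rose, and Itga2, a collagen receptor chain, fell to 0.468 of its control level. Itga1, Itga7 and Itga8, chains known from vessels, muscle and mesenchyme, rose from low levels. Itga7 and Itga8 entered the test through high values in the eKO libraries only. In 6 fits that each left out 1 library, Itga1, Itga7 and Lama3 missed the threshold in 4, 2 and 5. In all, 8 of 24 tested members passed the test in HFSC, 33.3%, beside 19.4% of all genes. In whole skin no member passed the test.

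For orientation on sequence, the 250 bases before an annotated start are given for 4 of the genes that changed in HFSC and had an entry among RefSeq promoters (build GRCm38.p6, a different build from that named for the tables). Lamb3 and Itgb6 had 2 annotated starts each, of which only the outermost was used. Lamb3 and Itga2 fell, and Itgb6 and Itga8 rose. Each is written 5′ to 3′ on the strand of the gene, in lower case, with capitals marking GGAAA, the core bound by NFAT factors, on either strand.
Lamb3 promoter, chr1:193301744-193301993, plus strand: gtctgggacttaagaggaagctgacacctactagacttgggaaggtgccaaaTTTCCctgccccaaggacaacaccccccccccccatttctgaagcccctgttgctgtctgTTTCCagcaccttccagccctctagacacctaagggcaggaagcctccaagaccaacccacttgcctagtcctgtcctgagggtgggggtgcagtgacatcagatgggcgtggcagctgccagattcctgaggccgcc
Itga2 promoter, chr13:114932101-114932350, minus strand: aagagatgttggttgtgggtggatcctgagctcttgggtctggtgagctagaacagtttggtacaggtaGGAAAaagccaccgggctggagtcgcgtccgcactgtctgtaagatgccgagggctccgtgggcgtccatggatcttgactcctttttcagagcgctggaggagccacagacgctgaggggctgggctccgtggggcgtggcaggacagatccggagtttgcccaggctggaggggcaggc
Itgb6 promoter, chr2:60722604-60722853, minus strand: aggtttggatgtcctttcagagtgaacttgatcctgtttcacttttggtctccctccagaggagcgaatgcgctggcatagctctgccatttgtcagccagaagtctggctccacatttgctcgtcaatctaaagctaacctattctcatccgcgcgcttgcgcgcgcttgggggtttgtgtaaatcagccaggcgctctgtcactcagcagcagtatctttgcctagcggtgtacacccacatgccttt
Itga8 promoter, chr2:12301945-12302194, minus strand: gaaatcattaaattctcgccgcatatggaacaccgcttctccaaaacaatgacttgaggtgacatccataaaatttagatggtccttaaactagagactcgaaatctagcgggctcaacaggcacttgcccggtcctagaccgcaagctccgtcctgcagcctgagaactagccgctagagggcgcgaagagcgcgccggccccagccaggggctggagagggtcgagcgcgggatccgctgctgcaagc
Of the 37 members, 23 had an entry, and Itga6, Itga7, Itgb4 and Lama3 were not among them. A GGAAA core on either strand was in 12 of these 23 windows and in 55.6% of all 32851 RefSeq windows of the same length. Among the called genes with an entry, the windows of Lamb3 and Itga2, which fell, held 2 and 1, and those of Itga1, Itgb6 and Itga8, which rose, held 1, 0 and 0. The AP-1 type motif TGANTCA was in 1 member window (6.75% of all windows), the GC box GGGCGG in 8 (32.7%) and TATAAA in 0 (12.4%), each on either strand, and none of these 3 was in the 4 windows shown. A match in letters is a description and was not tied to any measured binding.

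Depth, as reads recovered from the deposited values, ran from 6.43 to 9.39 M (mega) per library in HFSC and from 8.21 to 16.38 M in skin. The targeted gene Grk2 stayed measurable, with 135 ± 12.0 normalised counts in the control and 114 ± 8.68 in the eKO HFSC (SD, n = 3 each), and 1300 ± 144 and 1110 ± 93.8 (SD, n = 5 each) in skin, and its libraries overlapped between genotypes in both tissues. Bulge markers were high in sorted cells of both genotypes: 7 of them, among them Cd34, Krt15 and Sox9, summed to 152000 to 155000 in control and 131000 to 150000 in eKO libraries, and 1 of them, Lgr5, had means of 7376 and 3833. Other marker sums moved with genotype in HFSC. The sum of 8 endothelial markers was 53.9 to 70.5 in control and 1190 to 1360 in eKO libraries, that of 6 markers of differentiated epidermis 2530 to 4360 against 16700 to 17500, and that of 7 hair matrix and shaft markers 585 to 646 against 2210 to 2440. Of the epidermal markers, Krt1, Krt10, Casp14, Klk7 and Ivl were called higher. Lor went the other way, with means of 30.3 and 8.98 (log2 difference -2, limma adjusted p 0.113). Leukocyte markers summed to 292 to 346 against 1230 to 2150, mostly Cd74 and H2-Ab1, with the macrophage marker Adgre1 at 2.00 or less in every library. On the same list Lyz2 fell from a mean of 47 to 11.3 (limma adjusted p 0.0369). Ptprc had means of 14.9 and 16.6, Cd3e of 6.54 and 7.46 and Cd207 of 3.05 and 4.05. The 5 melanocyte markers summed to 1880 to 2260 against 609 to 950, mostly Mitf. Pmel had means of 92.8 and 39.4 (limma adjusted p 0.0551). Dct had means of 80.3 and 78.6, Tyrp1 of 34.9 and 36.2 and Mlana of 2.35 and 2.53. The Y-linked gene Ddx3y was at 1180 to 1220 in control HFSC and 359 to 434 in eKO HFSC, so sex composition and genotype cannot be told apart there. In skin, control replicate 5 and eKO replicate 3 were near 0 for Ddx3y, and hair matrix and shaft markers ran from 165 to 139000 in control and from 430 to 56900 in eKO libraries. In bulk RNA, fewer cells of a type and less RNA per cell cannot be told apart.

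The make-up of the receptors was described first, with levels per kb of exon so that genes can be set side by side. In control HFSC, Itga6 was the highest α chain at 239 ± 15.1 normalised counts per kb (SD, n = 3), before Itgav at 191 ± 18.6 and Itga3 at 169 ± 9.82, and the spreads of Itgav and Itga3 overlapped. Among β chains, Itgb1, the common partner of most α chains, was highest at 515 ± 63.8, before Itgb4 at 179 ± 12.5 and Itgb6 at 165 ± 3.78, whose spreads overlapped. As a share of all α chains per kb, Itga6 made up 34.4% ± 2.17 in control and 45.7% ± 1.90 in eKO HFSC (SD, n = 3 each). The shares of Itgav (27.4% ± 1.75 and 20.0% ± 4.23) and Itga2 (6.23% ± 0.413 and 2.65% ± 0.750) were lower in eKO. Control skin gave a share of Itga6 similar to that of control HFSC (33.3% ± 3.63), and eKO skin a lower one (27.3% ± 2.71, SD, n = 5 each).

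Laminins differed more between the tissues. In control HFSC, Lama3 made up 78.0% ± 2.28 of α and Lamb3 86.8% ± 0.640 of β chains per kb (SD, n = 3). In control skin the same chains made up 26.7% ± 4.90 and 44.2% ± 6.35 (SD, n = 5). There, Lama5 and Lamb2, chains of the laminins of vessels, nerves, muscle and epithelia, were at 33.9% ± 11.8 and 45.2% ± 6.98. The 2 tables were normalised separately, so the shares are set side by side and were not tested between tissues.

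**Figure D1:**
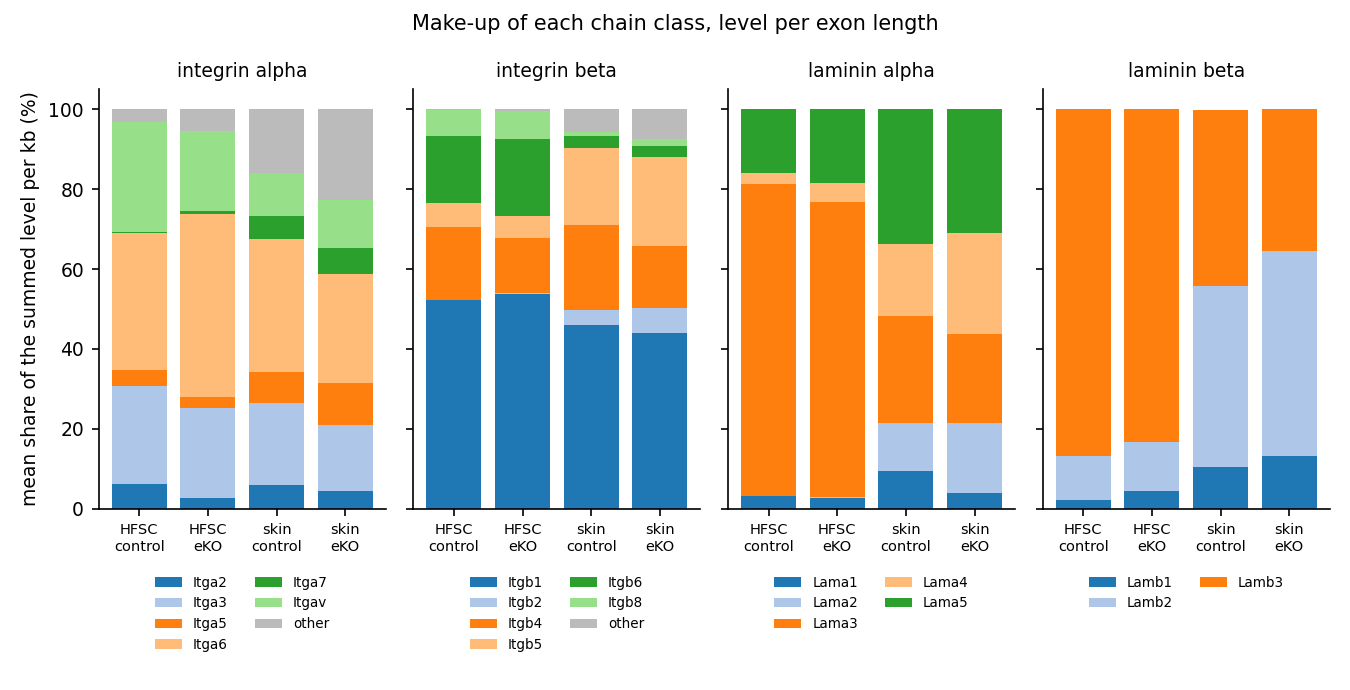
Each bar is 1 group and each segment the mean share (%) of a gene in the summed level per kb of its chain class, for integrin α and β and laminin α and β chains. Lama3 and Lamb3 fill most of the HFSC bars, and the Itga6 segment grows from 34.4% to 45.7% from control to eKO HFSC.

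The comparison of eKO with control HFSC asked which of these genes differ in the stem cells. Of the 37 members, 24 passed the filter on low values (a normalised count of at least 10 in 3 libraries) and 13 did not. By limma with Benjamini-Hochberg adjustment over all genes and a threshold of 0.05, 5 members were higher and 3 lower in eKO, 33.3% of those tested. Over all 13784 genes tested 19.4% were called, 10.7% higher and 8.74% lower. The members were chosen with earlier results of these data known, so these shares are descriptions. On the recovered reads, edgeR called 8 members (18.9% of all genes) and DESeq2 called 9 (21.9%). At an unadjusted p under 0.05 there were 10 members, against 32.8% of all genes. The median log2 difference of the tested members was 0.08, beside -0.03 over all genes. Itga7 and Itga8 passed the filter through the eKO libraries only, so a difference was built into their selection. Lama1 passed through the control libraries only and was not called. Of the other 21 tested members 6 were called, where 18.5% were called over all genes chosen the same way. Without control replicate 1, the count of called members was 5 of 27 tested, and the share over all genes fell to 10.6%.

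Itga6, the α6 chain by which the cells were sorted, was at 2047, 2121 and 2311 in the control and 3290, 3141 and 3236 in the eKO libraries. Every eKO library lay above every control library. Itga6 rose by 49.4% (log2 difference 0.58, SE 0.09, 95% interval 0.39 to 0.77, limma adjusted p 5.1e-04). The gate took cells by α6 integrin protein, so these are values within a gate on that protein, and the share of cells gated is not known here. Itgb4, which encodes the β4 chain that binds α6 in hemidesmosomes, was at 1321, 1158 and 1296 in control and 1213, 1095 and 1109 in eKO libraries. These overlapped, with a log2 difference of -0.14 (95% interval -0.37 to 0.09, limma adjusted p 0.382). Itgb1, the other partner of α6, was at 1886, 2031 and 2392 against 2512, 2690 and 2484. The groups did not overlap, but the log2 difference of 0.29 (95% interval 0.07 to 0.51) missed the threshold with a limma adjusted p of 0.0639. DESeq2 on the recovered reads called it (adjusted p 0.0399), as did limma without control replicate 3 (adjusted p 0.0362).

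The ratio of Itga6 to Itgb4, per base of exon, was 1.20, 1.42 and 1.39 in the control and 2.11, 2.23 and 2.27 in the eKO libraries. It did not overlap between genotypes in HFSC. In skin the ratio was 0.806 to 1.30 in control and 0.698 to 1.23 in eKO libraries, which overlapped. These ratios are descriptions, since 3 against 3 libraries cannot give an exact permutation p below 0.1.

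Itga3, the α3 chain of a second laminin receptor of keratinocytes, was at 1029, 953 and 919.8 in control and 1064, 1049 and 892.7 in eKO HFSC. The groups overlapped, at a log2 difference of 0.05 (95% interval -0.20 to 0.30, limma adjusted p 0.815), which turned to -0.02 with library size as the only scaling. The differences of the other laminin-binding receptor genes, Dag1 (dystroglycan) and Bcam (Lutheran antigen), were 0.20 and -0.30, with limma adjusted p of 0.191 and 0.0742.

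Among the TGF-β-activating integrins, Itgb6 was at 1185, 1193 and 1143 in control and 1543, 1526 and 1775 in eKO libraries. All 3 eKO libraries were above the controls. Itgb6 rose by 37.2% (log2 difference 0.46, SE 0.10, limma adjusted p 0.00772). Its α partner Itgav was at 1878, 2271 and 2017 against 1256, 1792 and 2006, and overlapped between genotypes (log2 difference -0.31, limma adjusted p 0.174). Itgb8, the β chain of the other such integrin, was at 702.1, 669 and 734.9 against 655.8, 1184 and 809.6. It overlapped as well, with a log2 difference of 0.29 (limma adjusted p 0.29).

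Itga2, the α2 chain of a collagen receptor that pairs with β1, was at 318.1, 297.7 and 310.9 in control and 191.1, 123.9 and 125.7 in eKO libraries. The eKO libraries all lay below the controls, and eKO replicate 1 was the highest of them. Itga2 fell by 53.2% (log2 difference -1.10, SE 0.21, limma adjusted p 0.00292). Itga1, whose product is the α1 chain of another collagen receptor, was at 97.7, 199.9 and 91.0 in control and 189.5, 218.1 and 395.2 in eKO libraries. Control replicate 2 overlapped with the eKO group. Its log2 difference was 1.06 (SE 0.33, limma adjusted p 0.0397). The call was lost without control replicate 1 (adjusted p 0.149), control replicate 3 (0.151), eKO replicate 2 (0.0587) or eKO replicate 3 (0.164), with library size as the only scaling (0.0522) and with no filter on low values (0.0608).

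Itga7, a laminin receptor chain of muscle, was at 7.98, 6.31 and 24.0 in control and 62.2, 54.8 and 45.8 in eKO libraries. The groups did not overlap. The log2 difference was 2.22 (SE 0.55, limma adjusted p 0.0141), and the call was lost without control replicate 1 (adjusted p 0.0557) or control replicate 2 (0.0599). Itga8, the chain that pairs with β1 to bind nephronectin in mesenchyme and smooth muscle, was at 0, 2.10 and 0 in control and 40.2, 30.7 and 59.7 in eKO libraries. In reads this is 2 in all against 137, a ratio of 63.8 whose interval for counting error alone is 17.3 to 532. On the log2 scale Itga8 differed by 4.88 (SE 0.85, limma adjusted p 0.00154), and eKO libraries held 5.91 ± 2.00 normalised counts of Itga8 per kb, against 357 ± 8.41 of Itga6 (SD, n = 3).

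These low-level chains rose beside the endothelial markers. All 8 of those markers had a higher mean in eKO HFSC, among them Plvap (6.75 to 485), Pecam1 (16.1 to 255) and Vwf (0 to 130). Of the smooth muscle and pericyte markers, Acta2 was higher in every eKO library (mean 16.6 to 39.2, log2 difference 1.11, limma adjusted p 0.143), Tagln had means of 4.38 and 2.69, and Myh11, Rgs5, Pdgfrb and Des were at 0 in every eKO library. The sum of these 6 was 18.0 to 37.0 in control and 27.4 to 54.6 in eKO libraries. Of the fibroblast markers, Dcn rose from a mean of 0.997 to 25.5 (log2 difference 4.04, limma adjusted p 0.00973), and it passed the filter through the eKO libraries only. Col1a2 had means of 116 and 54.8 (log2 difference -1.23, adjusted p 0.0524), Col1a1 of 16.8 and 21.3 and Pdgfra of 11.7 and 0.365, Lum and Dpt were at 0 in every HFSC library and Col3a1 was at 0 in every eKO library. The sum of these 7 was 134 to 156 against 84.4 to 134. The part of other cell types in these rises was not tested.

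Of the laminin chains, Lamb3 was at 3347, 3292 and 3179 in control and 2063, 2231 and 2073 in eKO HFSC. The eKO libraries were all below the controls, with little spread within a group. Lamb3 fell by 35.2% (log2 difference -0.63, SE 0.08, 95% interval -0.81 to -0.44, limma adjusted p 2.4e-04). Lama3 was at 1286, 1156 and 1078 against 845.3, 861.6 and 1002. The groups did not overlap, and the log2 difference was -0.38 (SE 0.12, limma adjusted p 0.0397). That call rested on all libraries together: it was lost in 5 of the 6 fits that left out 1 library (adjusted p 0.19, 0.119 and 0.0608 without control replicates 1, 2 and 3, and 0.0723 and 0.0888 without eKO replicates 1 and 2), and with no filter on low values (0.0565).

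Among the remaining laminins, Lamb2, a chain of mature basement membranes, had a log2 difference of -0.40 in HFSC (limma adjusted p 0.0794), and its libraries did not overlap. Lama4 and Lamb1, chains of endothelial basement membranes, also did not overlap, at log2 differences of 0.56 and 0.40, and neither was called (limma adjusted p 0.249 and 0.236). Groups without overlap were found for 11 tested members, where the share over all genes tested was 36.3%. Lama5 and Lamc1 were close to 0 (log2 differences -0.11 and 0.11), and Lama1 was at 38.9, 22.1 and 69.0 in control against 1.52, 8.77 and 85.2 in eKO libraries (limma adjusted p 0.276).

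**Figure D2:**
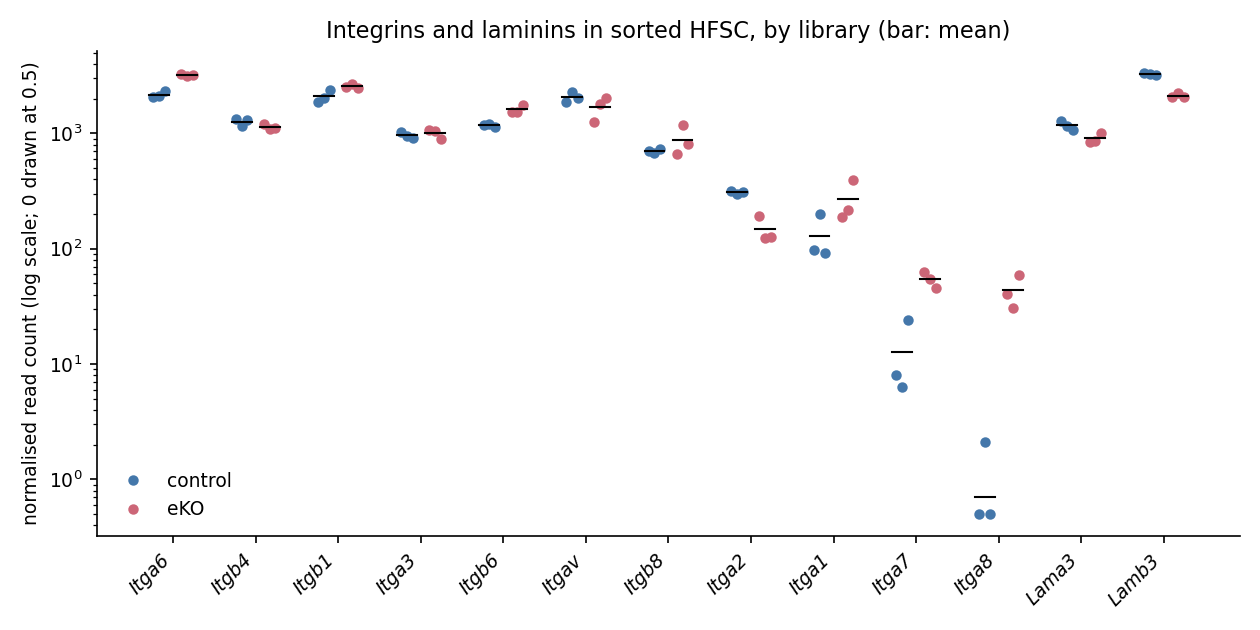
Normalised read counts (log axis) of 13 integrin and laminin genes in each HFSC library, control in blue and eKO in red, with bars at the group means. Itga6 and Itgb6 in eKO lie above, and Lamb3 and Itga2 below, every control library, while Itgb4 and Itga3 overlap.

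The 13 members under the filter in HFSC were Itga9, Itga10, Itga11, the leukocyte chains Itgad, Itgae, Itgal, Itgam, Itgax, Itgb2 and Itgb7, the platelet and endothelial chain Itgb3, and Lama2 and Lamc3. Itgal, Itgam and Itgax held 3 reads or fewer in every HFSC library. Read ratios were taken only for genes with 3 reads or fewer in every control and more in an eKO library. Falls could therefore not appear among them. Itgb2, the shared β chain of leukocyte integrins, had 4 reads in all control and 25 in all eKO libraries, a ratio of 5.82 (2.01 to 23.0, counting error only). Itgb3 had 4 and 33 reads (ratio 7.69, 2.73 to 29.9), of which 29 were in 1 library, eKO replicate 3. Itgam, whose product pairs with that of Itgb2 on myeloid cells, was listed at 0 in all 16 libraries, although Itgb2 was at 61.6 to 640 in the skin libraries.

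In whole skin, 36 of the 37 members passed the filter (a normalised count of at least 10 in 5 libraries) and 0 were called by limma, where 0.374% of all 16589 genes tested were, 0.229% higher and 0.145% lower. At an unadjusted p under 0.05 there were 9 members, beside 14.2% of all genes, and no member's libraries were separate between the genotypes (4.18% of all genes). The edgeR quasi-likelihood test on recovered reads also called 0, beside 0.326% of all genes. DESeq2 called 2, Itgb8 and Itgax, beside 3.99% of all genes. The median log2 difference of the members was 0.16, beside 0 over all genes. The skin genes other than Itga6, Itgb4, Itga3, Itgb1, Lama3 and Lamb3 are those with an unadjusted p under 0.05, and the leukocyte chains, named after their values were seen.

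Itga6 was at 2795, 3934, 5759, 2707 and 3073 in control and 2515, 2556, 2129, 2878 and 2865 in eKO skin. Control replicate 3 was the highest at 5759. The controls at 3934 and 3073 also lay above every eKO library, and those at 2795 and 2707 overlapped with the eKO group. The log2 difference was -0.44 (95% interval -0.88 to -0.01, limma adjusted p 0.344), and -0.26 without control replicate 3. Itgb4 was at 2514, 2344, 4030, 2237 and 2963 against 1888, 2448, 2373, 1818 and 2397, and Itga3 at 1075, 1275, 2318, 1375 and 1039 against 837.2, 1121, 1065, 872.5 and 1085. Both overlapped and both were highest in control replicate 3, with log2 differences of -0.34 and -0.45 (limma adjusted p 0.389 and 0.348). Itgb1 was at 3863, 5783, 3544, 2390 and 3028 against 4028, 3973, 3060, 3386 and 3637, at a log2 difference of 0.01 (limma adjusted p 0.983).

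Lama3 was at 446.5, 592.7, 697.6, 601.2 and 634.9 in control and 456, 438.8, 498.9, 320.2 and 494.3 in eKO skin. Control replicate 1 alone overlapped with the eKO libraries, and the log2 difference was -0.43 (95% interval -0.76 to -0.10, limma adjusted p 0.232). Lamb3 was at 1160, 1182, 1471, 954 and 1370 against 981.4, 1132, 963.2, 730.2 and 1103. The groups overlapped, at a log2 difference of -0.32 (limma adjusted p 0.354). Krt15, a keratin of bulge and basal cells, was at a log2 difference of -0.81 in the same skin libraries (limma adjusted p 0.237), and its part in these values was not tested.

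Itgb8 had the lowest p of the members in skin. It was at 165.6, 190.6, 167.1, 158.7 and 244.3 in control and 508.5, 243.4, 515, 349.2 and 345.1 in eKO libraries. Only control replicate 5 and eKO replicate 2 met, at 244.3 and 243.4. The log2 difference was 1.04 (SE 0.21, 95% interval 0.57 to 1.51, unadjusted p 5.02e-04, limma adjusted p 0.0676). DESeq2 gave an adjusted p of 4.93e-04, edgeR 0.0665, and limma without eKO replicate 2 gave 0.0393.

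Itga2, lower in eKO HFSC, was at 354.8, 466.3, 809.3, 406.1 and 529.4 in control and 315.3, 375, 375.6, 241.5 and 329 in eKO skin. Control replicate 1 alone overlapped with the eKO libraries, and the log2 difference was -0.60 (limma adjusted p 0.232). Itgb5, another β partner of αv, was at 1135 to 1522 in control and 1401 to 1739 in eKO skin, with overlap (log2 difference 0.29, limma adjusted p 0.238).

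No leukocyte integrin passed the test in skin by limma. Itgax, Itgae, Itgal, Itgb2 and Itgb7 had higher means in eKO skin, Itgad a lower one (61.9 to 12.9, log2 difference -1.03, limma adjusted p 0.609, with control replicate 1 far above the other controls), and Itgam was listed at 0. Itgax, a chain of dendritic cells, was at 163.7, 118.9, 125.3, 55.1 and 98.9 in control and 300.1, 228.7, 188.1, 125.4 and 311.5 in eKO libraries. The groups overlapped, and the log2 difference was 1.04 (SE 0.32, limma adjusted p 0.181). DESeq2 called it (adjusted p 0.0358), as did limma with the hair matrix and shaft level as a covariate (adjusted p 0.0318). Itgae, the αE chain of T cells resident in epithelia, and Itgb7, its β partner, had log2 differences of 0.78 and 0.58 (limma adjusted p 0.195 and 0.298). Itgb2 was at 61.6 to 640 in control and 346.7 to 467.6 in eKO libraries (log2 difference 1.00, limma adjusted p 0.385). Leukocyte markers summed to 4690 to 13300 in control and 9770 to 14500 in eKO skin, and their part in these values was not tested.

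**Figure D3:**
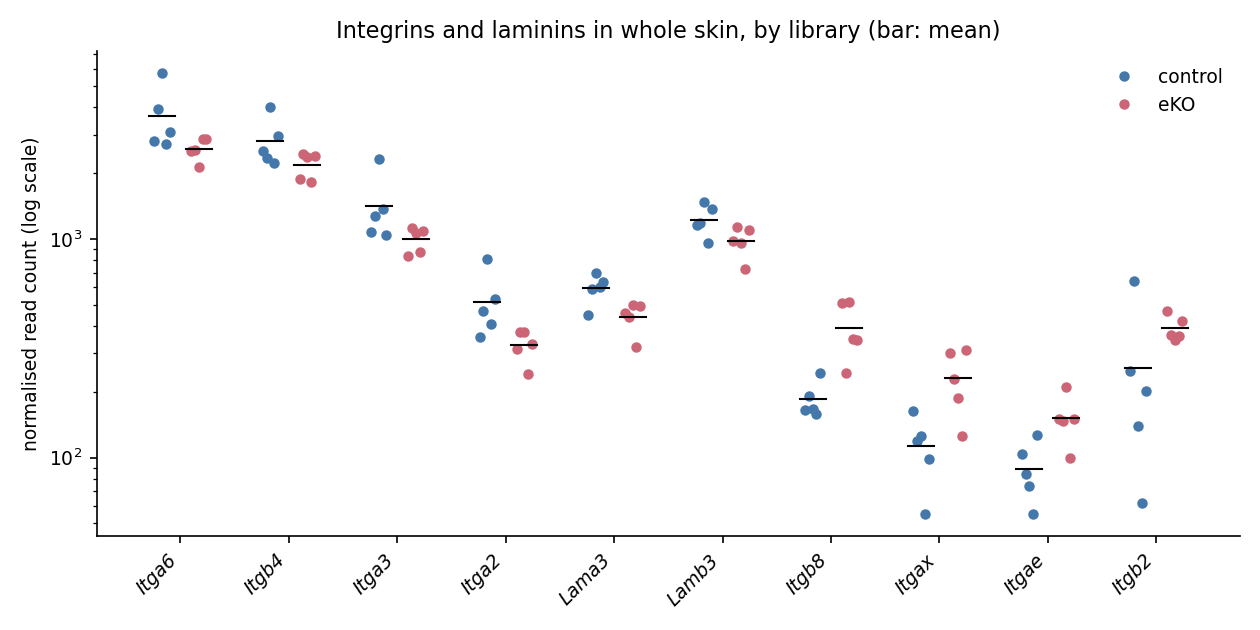
Normalised read counts (log axis) of 10 integrin and laminin genes in each skin library, control in blue and eKO in red, with bars at the group means. Control replicate 3 holds the highest Itga6, Itgb4 and Itga3 values, and Itgb8 meets between groups only at 244.3 and 243.4.

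Whether the genotype effect differed between HFSC and skin was tested as an interaction in 1 limma fit of 4 group means, for the genes tested in both tables. It also carries the differences in age label, preparation and cell composition between the tissues, which cannot be told apart. Of 24 members tested, Itga6, Itga7 and Itga8 were called, with a higher effect in HFSC, where 5.62% of all 13227 genes were called and 3.44% had a higher effect. Itga7 and Itga8 had entered the HFSC test through the eKO libraries only. Leaving out the members that passed the HFSC filter through 1 group only, 1 of 21 was called, Itga6, where the share over all genes chosen the same way was 4.25%. The difference of effects was 1.02 for Itga6 (SE 0.27, limma adjusted p 0.0355), 2.18 for Itga7 (SE 0.59, adjusted p 0.039) and 4.61 for Itga8 (SE 0.54, adjusted p 9.06e-05). This fit pools 1 variance per gene over both tissues, so its SE can lie below that of the HFSC effect alone. For Itga8 the SE was 0.54 here and 0.85 in HFSC, so its interaction p-value understates the spread between the HFSC libraries. For Itga6, the effect was 0.58 in HFSC and -0.44 in skin. Its call was lost in 10 of 16 fits that left out 1 library, namely each of the 6 HFSC libraries, skin control replicate 2 and skin eKO replicates 1, 2 and 3, with an adjusted p of up to 0.0883. That of Itga7 was lost in 11 of 16, namely without HFSC control replicates 1 and 2, each HFSC eKO library, skin control replicates 1, 2 and 3, and skin eKO replicates 3, 4 and 5, with an adjusted p of up to 0.109, and with a pseudocount of 5 (0.06). In skin, Itga7 and Itga8 were at 252 to 794.4 and 65.8 to 156.8, and their effects were 0.03 and 0.27. No laminin was called, and the differences of effects were 0.05 for Lama3 and -0.30 for Lamb3 (limma adjusted p 0.924 and 0.42). Itgb8, higher in eKO skin by 1.04 and in eKO HFSC by 0.29, neither of them called, had a difference of effects of -0.75 (limma adjusted p 0.197).

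**Figure D4:**
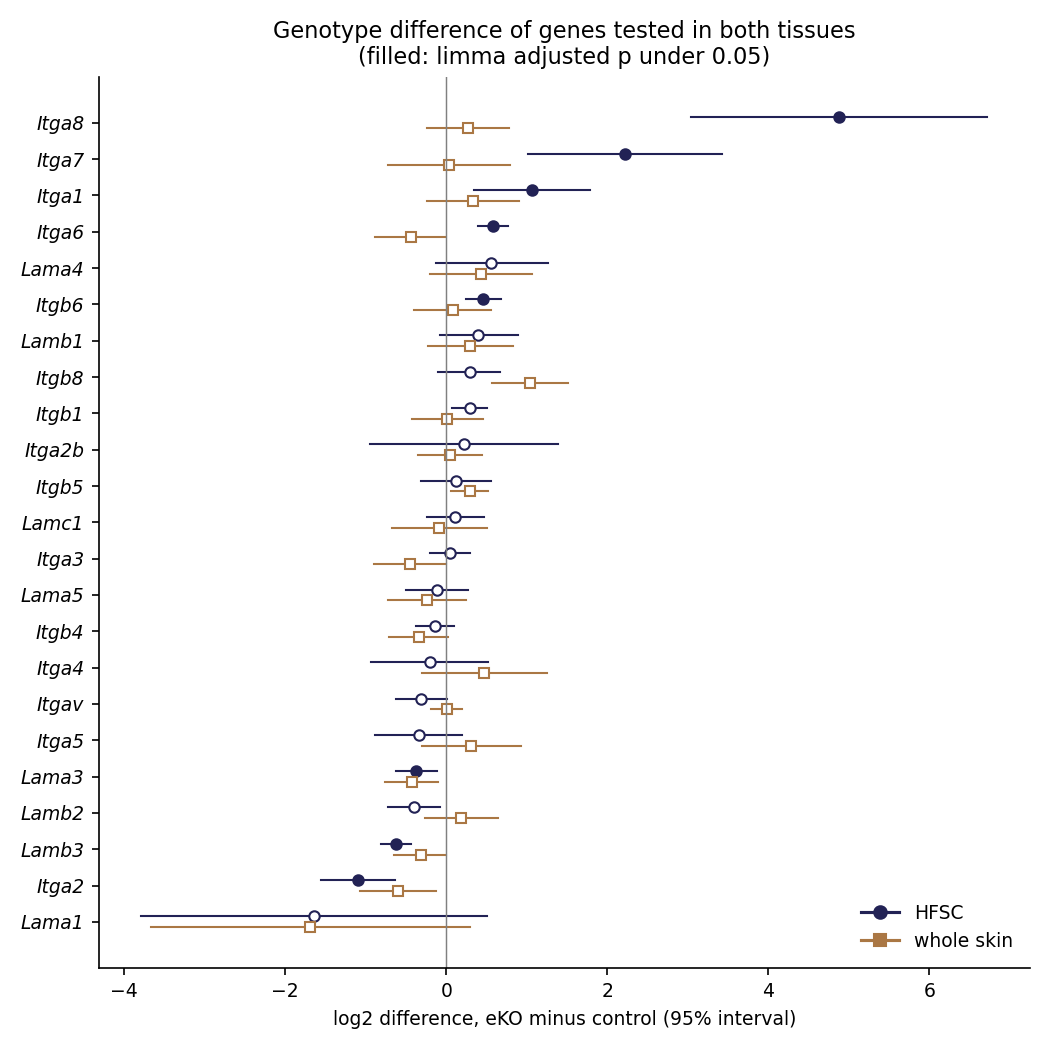
Log2 difference of eKO minus control with its 95% interval for 23 of the 24 genes tested in both tissues, HFSC as dark circles and skin as brown squares, filled where the limma adjusted p was under 0.05. The Itga6 circle lies at 0.58 and its square at -0.44, and no square is filled.

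The partners of these genes were taken from 5 lists holding 57 genes: hemidesmosome parts, other laminin receptors, other basement membrane genes, integrin activators and adaptors, and integrin ligands other than laminins. In HFSC, 48 were tested, 12 were higher and 2 lower by limma, 29.2%, against 19.4% over all genes (10.7% higher and 8.74% lower). The lists were chosen with earlier results of these data known, so these shares are descriptions. Nid1, Lims2 and Icam2 passed the filter through the eKO libraries only, and Col4a1 and Fermt3 through the controls only. Of the other 43 tested, 11 were called, beside the 18.5% over all genes chosen the same way. The count of called partner genes was 9 without control replicate 2 or without eKO replicate 3, where the share over all genes was 10.8% and 15.8%. The median log2 difference was 0.18.

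In the hemidesmosome, 1 of 4 genes was called, beside 19.4% of all genes. Plec, which encodes plectin, the link from β4 integrin to keratin, was at 6534, 6267 and 6378 in control and 8768, 7902 and 7598 in eKO HFSC. The groups were apart, at a log2 difference of 0.34 (SE 0.08, limma adjusted p 0.00818), and the call was lost without control replicate 2 (adjusted p 0.0508). Col17a1, the collagen XVII of hemidesmosomes and a known maintainer of bulge stem cells, was at 16650, 15840 and 16700 against 15460, 14250 and 14100. It did not overlap but missed the threshold (log2 difference -0.17, limma adjusted p 0.0964), and passed it with library size as the only scaling (-0.24, adjusted p 0.0218) and without eKO replicate 1 (-0.21, adjusted p 0.0132). Dst, the dystonin gene, was at a log2 difference of 0.03 (-0.04 with library size only), and Cd151, a tetraspanin bound to α3 and α6 integrins, at 0.18 (limma adjusted p 0.771 and 0.229). In skin, Col17a1 and Dst were at -0.61 and -0.55, uncalled (limma adjusted p 0.272 and 0.301).

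Of 20 other basement membrane genes, 17 were tested in HFSC, with 4 higher and 1 lower, beside 10.7% and 8.74% of all genes. Of these, Nid1 passed the filter through the eKO libraries only. Fras1, an epithelial basement membrane protein that is lost in Fraser syndrome, was at 41.9, 22.1 and 24.0 in control and 261.6, 218.1 and 205.6 in eKO libraries. The eKO libraries all lay far above the controls. The log2 difference was 2.97 (SE 0.32, limma adjusted p 3.71e-05). In skin, Fras1 ran from 28.7 to 184.8 in control and 41.9 to 137.6 in eKO libraries, and the interaction was not called (difference of effects 2.76, limma adjusted p 0.0598). Its SE was 0.82 with the variance pooled over both tissues, against 0.32 in HFSC alone. Nid1, the nidogen that joins laminin to collagen IV, was at 0, 9.47 and 0 against 24.3, 41.7 and 27.7. The groups were apart, at a log2 difference of 3.84 (limma adjusted p 0.0172), and the call was lost without control replicate 1 (adjusted p 0.062), control replicate 3 (0.0566) or eKO replicate 2 (0.0571). Egflam (pikachurin, a ligand of dystroglycan) and Sparc, an extracellular calcium-binding protein, rose by log2 1.24 and 0.55 (limma adjusted p 0.027 and 0.0025). Col18a1, which encodes the basement membrane collagen XVIII, was at a log2 difference of -0.64 (limma adjusted p 0.0162). The call of Egflam was lost without control replicates 1 (adjusted p 0.11) or 2 (0.0646) and eKO replicates 2 (0.0533) or 3 (0.0685), and with no filter on low values (0.0551). That of Col18a1 was lost without control replicates 1 (0.083) or 2 (0.0644) and eKO replicate 3 (0.0538). Npnt, whose product nephronectin is laid down by bulge cells and bound by α8β1 integrin, was at 1345, 1274 and 1371 against 1525, 1355 and 1664. It overlapped between genotypes (log2 difference 0.18, limma adjusted p 0.256), beside the rise of its receptor chain Itga8.

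Of 18 activators and adaptors, 16 were tested, with 3 higher and 1 lower, beside 10.7% and 8.74% of all genes. Of these, Lims2 passed the filter through the eKO libraries only. Lims2, which encodes an adaptor that binds integrin-linked kinase, was at 2.99, 2.10 and 1.00 in control and 59.9, 30.7 and 46.9 in eKO HFSC. The groups were far apart (log2 difference 3.95, SE 0.70, limma adjusted p 0.00163). Parva (α-parvin, a partner of integrin-linked kinase) rose by 0.74 and Tln1 (talin), which activates integrins from inside the cell, by 0.55 (limma adjusted p 0.00919 and 0.0363). The call of Parva was lost without control replicate 3 (adjusted p 0.0503), and that of Tln1 in all 6 fits that left out 1 library (adjusted p up to 0.134), with library size as the only scaling (0.0595) and with the replicate block (0.0543). Zyx, the focal adhesion protein zyxin, fell by 0.39 (limma adjusted p 0.0234), and its call was lost without control replicates 1, 2 or 3 or eKO replicate 3 (adjusted p 0.0932, 0.0811, 0.0837 and 0.0659). Fermt1, the keratinocyte kindlin, was at 996.3, 947.8 and 943.8 against 1048, 804.6 and 1055 and overlapped (limma adjusted p 0.997).

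Of 13 ligands other than laminins, 9 were tested and 4 were higher, beside 10.7% of all genes. Of these, Icam2 passed the filter through the eKO libraries only. Tnc, tenascin C, a matrix protein of remodelling tissue that binds several integrins, was at 320.1, 275.6 and 286.9 in control and 896.1, 887.9 and 929.9 in eKO HFSC. The eKO libraries all lay far above the controls, at 3.07-fold and a log2 difference of 1.62 (SE 0.13, limma adjusted p 3.89e-06). In skin, Tnc was at 53.0 to 242.8 in control and 115.8 to 631.9 in eKO libraries (log2 difference 1.28, limma adjusted p 0.291). Thbs1 and Postn, the matrix proteins thrombospondin and periostin, rose by 0.45 and 0.38 (limma adjusted p 0.0056 and 0.0044). Icam2, an endothelial and leukocyte ligand of leukocyte integrins, was at 2.99, 4.21 and 0 against 24.3, 19.7 and 39.4. The groups were apart (log2 difference 3.33, limma adjusted p 0.0174), and the call was lost without eKO replicate 3 (adjusted p 0.0656). For untested genes, read ratios were taken only with 3 reads or fewer in every control and more in an eKO library. Falls could therefore not appear among these ratios. The untested basement membrane gene Nid2 went the other way, with 6, 4 and 8 reads in control and 0 in each eKO library. Vcam1 had 2 reads in all control and 69 in all eKO libraries, a ratio of 32.1 (8.57 to 271, counting error only). Col15a1 had 0 and 31 reads, a ratio with a lower limit of 7.37 (counting error only). Endothelial markers rose in the same libraries, as given above.

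**Figure D5:**
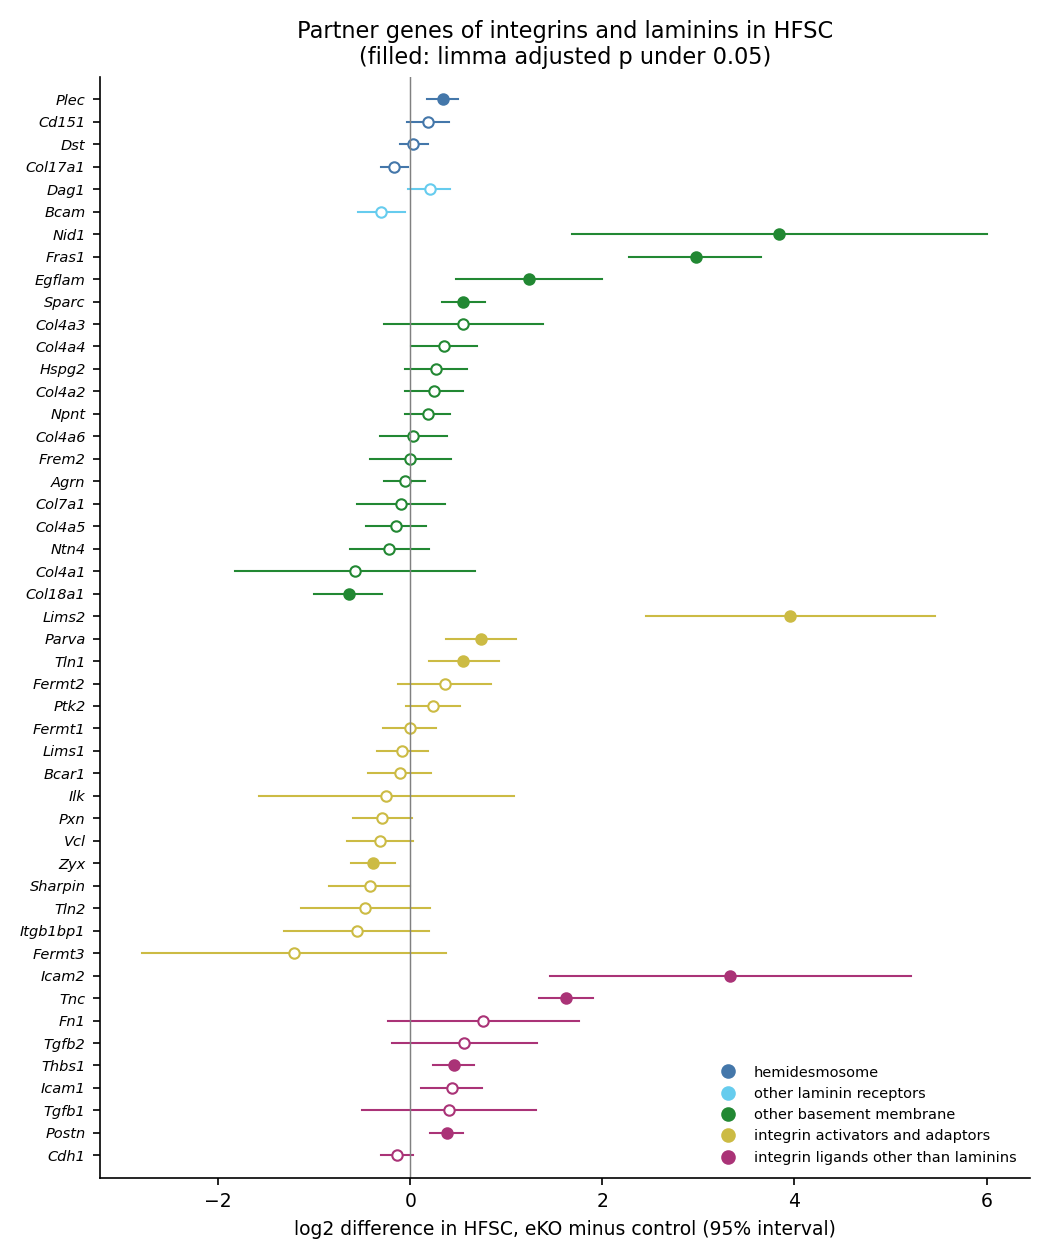
Log2 difference of eKO minus control in HFSC with its 95% interval for the 48 partner genes tested, coloured by list and filled where the limma adjusted p was under 0.05. Lims2 and Nid1 lie farthest right, at 3.95 and 3.84, and the filled points on the left are Col18a1 at -0.64 and Zyx at -0.39.

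In skin, 56 partner genes were tested and limma called 0 (0.374% of all genes), with 12 at an unadjusted p under 0.05 (14.2%). The edgeR test also called 0 (0.326%) and DESeq2 called 3 (3.99%). The interaction called Lims2, Nid1, Icam2 and Zyx of 48 partner genes, beside 5.62% of all genes. Lims2, Nid1 and Icam2 had entered the HFSC test through the eKO libraries only, and their differences of effects were 3.96, 3.77 and 2.98 (limma adjusted p 1.23e-04, 0.0102 and 0.0172). With the variance pooled over both tissues, their SEs were 0.48, 0.79 and 0.68, below the 0.70, 1 and 0.87 in HFSC alone. Without the genes that passed through 1 group only, 1 of 43 was called, Zyx, beside 4.25% of all genes. Zyx was lower in eKO HFSC by the 0.39 above and had a log2 difference of 0.48 in skin, a difference of effects of -0.87 (SE 0.20, limma adjusted p 0.0184).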

How the data were processed

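The authors deposited 1 table per tissue whose values are a signal: gene read counts divided by 1 size factor per library, per the values themselves. Whole reads were recovered for 100% of nonzero values (tolerance 0.01). Build GRCm39 is named for both tissues, and featureCounts and DESeq2 for skin, per the submitters' processing notes; aligner, annotation and strand are not given in the sources used here. How reads of near-identical or overlapping genes were counted is not stated. Symbols came from GENCODE M21, matching 94.1% of skin and 91.4% of HFSC rows; exon lengths for levels per kb also came from M21.

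Each tissue was tested with limma 3.58.1 (R 4.3.3) on log2(value + 1), which understates changes of low genes, with a trended prior, a minimum value of 10 and a threshold of 0.05. Alternatives were edgeR 4.0.16 (2609 HFSC and 54 skin genes called) and DESeq2 1.42.0 on recovered reads, pseudocounts 0.5 and 5, no filter or a filter at 50, library size only, a replicate block, a hair covariate, omission of 2 skin libraries low in Y-linked genes, and leaving out each library. Scripts were tested on simulated data. Read ratios were taken only for genes with 3 reads or fewer in every HFSC control library and more in an eKO library. Their intervals cover counting error only.

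Members and lists were chosen with earlier results of these data known. Library values are given for members past the threshold and for Itga6, Itgb4, Itga3, Itgb1, Lama3 and Lamb3, and partner genes are named if among the 8 largest called or if Col17a1, Dst, Plec, Cd151, Fermt1 or Npnt; Dag1, Bcam, Itgav, Itgb2, Itgb8, Itgax, Itgae, Itgb7, Vcam1, Col15a1 and others given without this rule were named after their values were seen. The values of 1 member are not reported here.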

Additional observations from a re-analysis of the deposited data

Results flagged for a closer look

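Of 72 groups of 5 skin libraries examined (a gene in a genotype), 5 held a library far from the others, where chance gives about 5%. Itga3 was at 2320 in control replicate 3 and at 1040 to 1380 in the other controls, and Itgav at 1620 in the same library against 1230 to 1340. Itgad was at 243 in control replicate 1 against 5.06 to 24.7. Itgb3 was at 617 in control replicate 2 against 278 to 355, and at 617 in eKO replicate 4 against 378 to 447.

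By the limma interaction, the effect of genotype differed between HFSC and skin for 3 of 24 members, Itga6 (1.02), Itga7 (2.18) and Itga8 (4.61). It also differed for 4 of 48 partner genes, Icam2 (2.98), Lims2 (3.96), Nid1 (3.77) and Zyx (-0.87), beside 5.62% of all genes. All of these except Itga6 and Zyx passed the HFSC filter through the eKO libraries only, so a difference in HFSC was built into their selection. Without genes that passed through 1 group only, 1 of 21 members and 1 of 43 partner genes were called, beside 4.25% of all genes. The calls of Itga6 and Itga7 were lost in 10 and 11 of 16 fits that left out 1 library. The part of endothelial transcripts, whose summed markers were 53.9 to 70.5 in control and 1190 to 1360 in eKO HFSC, was not tested.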

How the results depend on the processing

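In HFSC, Itga2, Itga6, Itgb6 and Lamb3 kept their calls in all 14 alternatives. Leaving out 1 library gave 5 to 8 called members (5 without HFSC control replicate 1, where 10.6% of all genes were called) and 9 to 16 called partner genes (9 without control replicate 2 or eKO replicate 3, where 10.8% and 15.8% were). HFSC replicate numbers did not pair the libraries (correlations of same-numbered libraries -0.06, -0.018 and -0.026), and the fit with the replicate block called 7 members and 13 partner genes, losing Lama3 and, of the partner genes, Tln1 (adjusted p 0.0543 for both), beside 19.6% of all genes. In skin, DESeq2 called 2 members and 3 partner genes (3.99% of all genes), the hair covariate 1 member (0.952%), omission of the 2 libraries low in Y-linked genes 0 (0 of all genes), and fits without 1 library 0 to 1. The interaction called 1 member with the filter at 50 (5.27% of all genes), which left Itga7 and Itga8 untested, and 1 to 3 without 1 library.

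Directions that turned belonged to values near 0. With library size only, Itga3 in HFSC was at -0.02, Dst in HFSC at -0.04 and the Lama3 interaction at -0.04. Itgb1 in skin was at -0.05 with edgeR and -0.04 with DESeq2, and Fermt1 in HFSC at 0.02 and 0.01. Without 1 library, the ranges were -0.22 to 0.25 for Itga7, -0.13 to 0.19 for Itgb1 and -0.04 to 0.21 for Itgb6 in skin, -0.02 to 0.06 for Dst and -0.07 to 0.13 for Fermt1 in HFSC, and -0.06 to 0.15 for the Lama3 interaction. The causes were not tested. Depth limits the genes with few HFSC reads, such as Itga7, Itga8 and the 13 untested members.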
